A study of Homo sapiens with 3 samples.

Results

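The genes described here were 57 adhesion genes, chosen by symbol from the 20163 protein-coding genes of GENCODE release 44 on GRCh37 (hg19). They comprised 18 integrin alpha subunits, 8 integrin beta subunits, 23 cadherins and 4 syndecans, together with 4 genes that carry an integrin name but encode no subunit (ITGB1BP1, ITGB1BP2, ITGB3BP and ITGBL1). The symbol rule used no measured value, but the set was chosen with earlier results of these data known. The peaks came from ChIP-seq, the sequencing of DNA recovered by chromatin immunoprecipitation, in untreated SAOS2 cells, a human osteosarcoma line that lacks p53. There was 1 library for RUNX2, made with a custom antibody, and 1 for its partner CBFB, made with a commercial antibody, and the input library was not analysed here. Peak lists hold no expression values, so the cell type could not be checked against its markers. A peak was counted for a gene when any of its bases lay within 25 kb of the gene body, the distance the study used to assign peaks. With 1 library per antibody there was no spread between replicates, so no p-value was computed. Intervals given with shares are exact 95% binomial intervals (Clopper-Pearson) and account for counting error alone.

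Integrins are heterodimers of an alpha and a beta subunit that bind the extracellular matrix or other cells, and in bone cells integrins that contain ITGB1, ITGAV or ITGB3 hold the cell to collagen, fibronectin and other matrix proteins. Cadherins join neighbouring cells in a calcium-dependent way, and CDH2 (N-cadherin) and CDH11 (osteoblast cadherin) are the forms best known from osteoblasts. Syndecans are transmembrane proteoglycans whose heparan sulfate chains bind matrix proteins and growth factors beside the integrins. RUNX2 is the DNA-binding transcription factor that drives osteoblast differentiation, and CBFB binds RUNX proteins and strengthens their hold on DNA without binding DNA itself.

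RUNX proteins recognise the core TGTGGT, which reads ACCACA on the other strand. The sequences below show what lay under the peaks: for integrin beta subunits, the 3 groups of cadherins and syndecans, the highest-scoring RUNX2 peak with a core within 100 bp of its midpoint, with the GRCh37 plus strand around the core nearest the midpoint. Capitals mark every copy of the core on either strand. The ITGB1 window, chr10:33299377-33299496, came from a peak upstream of the gene and held a copy on each strand. Windows of 120 bases are given, except for CDH5, where the window lay in an untranslated region and was limited to 30 bases. The other windows were chr18:25534291-25534410 (CDH2), chr16:66410329-66410358 (CDH5), chr16:66961188-66961307 (CDH16) and chr20:43932741-43932860 (SDC4).
ITGB1, integrin beta: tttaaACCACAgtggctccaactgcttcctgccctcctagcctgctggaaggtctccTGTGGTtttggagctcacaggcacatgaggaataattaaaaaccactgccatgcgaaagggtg
CDH2, cadherin type I: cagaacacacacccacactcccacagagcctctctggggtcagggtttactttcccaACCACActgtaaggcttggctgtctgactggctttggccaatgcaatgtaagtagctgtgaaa
CDH5, cadherin type II: aggaaagagaaaACCACAttcccgctcact
CDH16, other cadherins: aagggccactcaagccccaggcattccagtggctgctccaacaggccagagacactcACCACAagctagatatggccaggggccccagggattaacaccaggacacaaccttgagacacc
SDC4, syndecan: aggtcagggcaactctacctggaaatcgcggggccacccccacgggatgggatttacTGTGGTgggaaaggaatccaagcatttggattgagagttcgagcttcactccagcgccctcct

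The RUNX2 list held 9941 peaks and the CBFB list 27246. The score of a peak depends on the depth of its library, which cannot be known from lists without read counts. Scores were therefore read as percentiles, the share of peaks in the same list with that score or less.

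The first question was how many adhesion genes lay near a peak. A RUNX2 peak was found near 27 of the 57 genes, a share of 47.4% (34.0 to 61.0), against 36.0% of all protein-coding genes. A CBFB peak was found near 36 of the 57 genes, or 63.2% (49.3 to 75.6), against 62.2% of all protein-coding genes. Longer genes catch more peaks, and the adhesion genes were long, with a median of 90.9 kb against 27.2 kb. For each gene the 200 other protein-coding genes nearest in length were therefore taken as a measure of what its length gives. Summed over the 57 genes, these gave 24.2 genes with a RUNX2 peak and 39.2 genes with a CBFB peak. The whole set was thus close to genes of similar length for both proteins. Every gene with a RUNX2 peak also had a CBFB peak, which left 9 genes with CBFB alone and 21 with neither. The shares of all protein-coding genes in these classes were not counted.

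**Figure D1:**
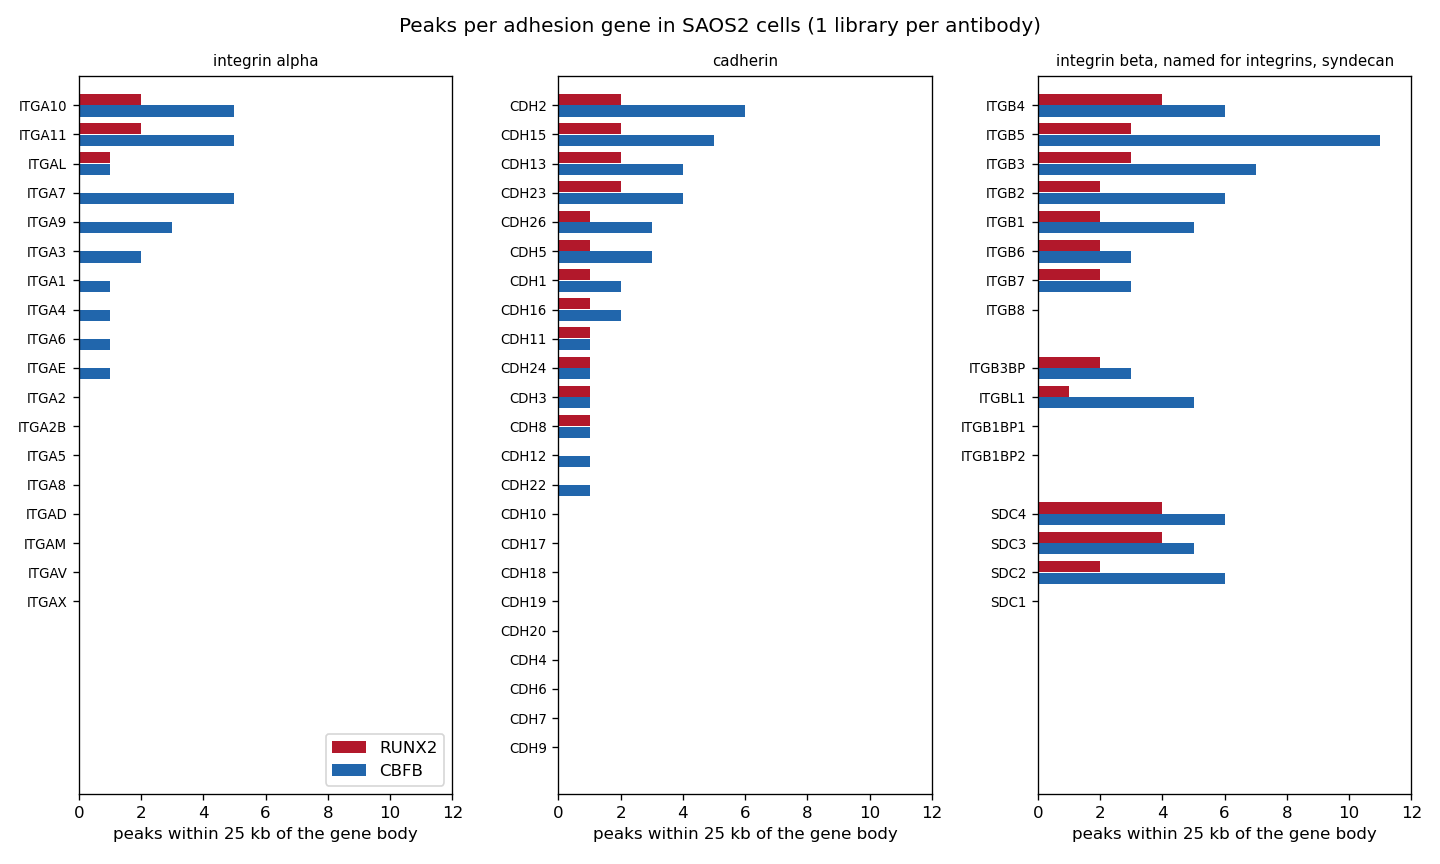
Number of RUNX2 (red) and CBFB (blue) peaks within 25 kb of the body of each of the 57 genes, 1 library per antibody. ITGB5 had the most CBFB peaks, 11, while ITGB4, SDC3 and SDC4 each had 4 RUNX2 peaks, and 21 genes had none of either.

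The share of genes with a RUNX2 peak ranged from 16.7% to 87.5% between families. RUNX2 peaks were found near 7 of the 8 integrin beta genes (87.5%, 47.3 to 99.7), where genes of similar length gave 3.10. They were found near 3 of the 18 integrin alpha genes (16.7%, 3.58 to 41.4), where genes of similar length gave 7.21. The intervals of alpha and beta did not overlap, but these were the lowest and highest shares among the families. The families were not compared by a test. The value from genes of similar length, 38.8%, was below the interval of the beta genes, while that of the alpha genes, 40.0%, was just inside their interval. Cadherins had RUNX2 peaks at 12 of 23 genes, against 10.7 from length, and syndecans at 3 of 4, against 1.57. With so few syndecans the interval ran from 19.4 to 99.4%.

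For CBFB the families were closer together. CBFB peaks were found near 10 of the 18 alpha genes (12 from length), 7 of the 8 beta genes (5.38), 14 of the 23 cadherins (16.5) and 3 of the 4 syndecans (2.65). Each of these values from length lay within the interval of its family. The alpha and beta intervals overlapped, with 30.8 to 78.5% for alpha and 47.3 to 99.7% for beta. Of the 10 alpha genes with a CBFB peak, 7 had no RUNX2 peak, and the same held for 2 of the 14 cadherins with a CBFB peak. No beta gene or syndecan was in that position. Over all protein-coding genes 62.2% had a CBFB peak and 36.0% a RUNX2 peak, so CBFB without RUNX2 was common. Its share over all genes was not counted.

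**Figure D2:**
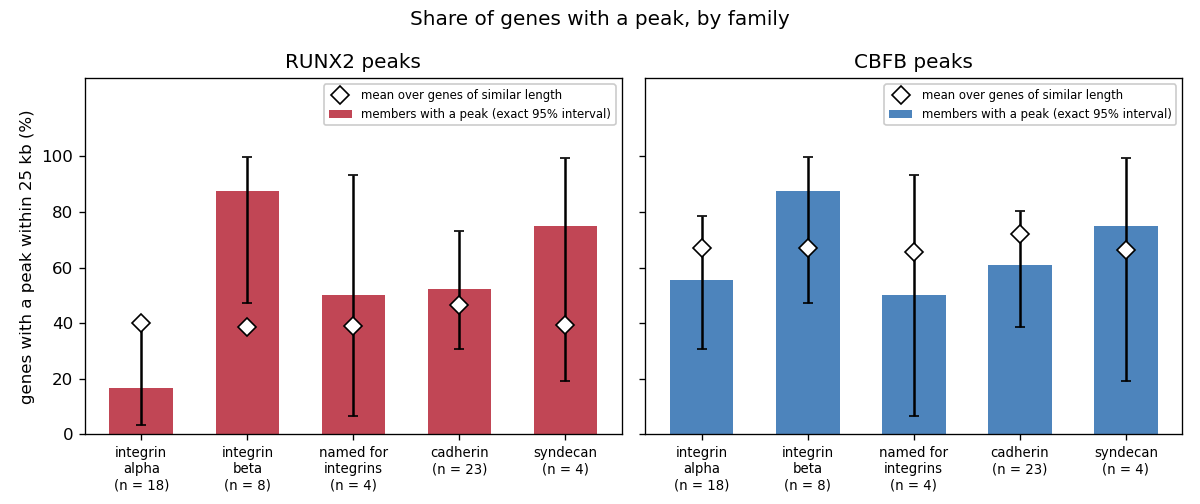
Percentage of genes with a RUNX2 (left) or CBFB (right) peak within 25 kb, by family, with exact 95% intervals as error bars. Diamonds give the mean share over the genes nearest in length, which for RUNX2 was 38.8% in the beta family, below the interval of the bar, and 40.0% in the alpha family, above the bar and inside its interval.

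Among integrin alpha subunits, peaks were absent from the RGD-binding group, which recognises the Arg-Gly-Asp motif of fibronectin and related proteins. ITGAV, ITGA5, ITGA8 and ITGA2B had 0 RUNX2 and 0 CBFB peaks, where genes of similar length gave 1.58 and 2.65 genes with a peak. A count of 0 of 4 allows a share of up to 60.2%. For ITGA5, the fibronectin receptor subunit, the nearest RUNX2 peak was 35.6 kb from the gene body and the nearest CBFB peak 70.0 kb. For ITGAV, the partner of ITGB3 in the vitronectin receptor, these distances were 521 kb and 103 kb.

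The collagen-binding alpha subunits had 4 of the 5 RUNX2 peaks of this family. ITGA11, a collagen receptor subunit of fibroblastic cells, had 2 RUNX2 peaks, both in introns. The stronger, chr15:68626661-68628246, scored 181.04 (percentile 86.9) and lay 985 bp from a transcript start inside the gene. The CBFB peak that overlapped it scored 615.73 (percentile 94.0). The weaker ITGA11 peak scored 71.97. ITGA10, a collagen receptor subunit of cartilage, also had 2 RUNX2 peaks, which scored 113.53 at chr1:145514873-145516931 and 63.04 at chr1:145522256-145524330. Both had midpoints outside ITGA10, and for neither was an ITGA10 start the nearest protein-coding start. ITGA10 and ITGA11 had 5 CBFB peaks each. ITGA1 had 1 CBFB peak and ITGA2 had none.

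The laminin-binding subunits ITGA3, ITGA6 and ITGA7 had CBFB peaks but no RUNX2 peak. ITGA7, the form of muscle cells, had 5 CBFB peaks, a number reached by 5% of genes of similar length. Its highest scored 286.92 (percentile 80.8) and lay 39 bp from a start of RDH5. An ITGA7 start was the nearest protein-coding start for 2 of the 5. ITGA3 had 2 CBFB peaks that scored 220.66 and 193.23, and ITGA6 had 1 that scored 79.67. The nearest RUNX2 peaks were 90.9 kb (ITGA3), 247 kb (ITGA6) and 400 kb (ITGA7) away.

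Of the 7 alpha subunits of leukocyte and VCAM-binding integrins, ITGAL alone had a RUNX2 peak. It scored 63.19 (percentile 26.2), lay 13390 bp upstream at chr16:30470266-30470913, and overlapped the single CBFB peak of ITGAL, which scored 366.34. ITGA9 had 3 CBFB peaks, ITGA4 and ITGAE had 1 each, and ITGAD, ITGAM and ITGAX had none.

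Among integrin beta subunits, ITGB8 alone had no peak of either protein. ITGB1, the common partner of the collagen, laminin and fibronectin receptors, had 2 RUNX2 peaks. The stronger, chr10:33298894-33299952, scored 388.75 (percentile 98.1) and lay 4703 bp upstream of the ITGB1 start, in an intron of the divergent transcript ITGB1-DT. The overlapping CBFB peak scored 1374.76 (percentile 99.0), and the midpoints of the pair were 16 bp apart. This is the peak whose sequence is given above. The weaker RUNX2 peak, chr10:33294357-33295151, scored 70.22 and lay 34 bp from the start. ITGB1 had 5 CBFB peaks in all.

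ITGB2, the beta subunit of leukocyte integrins, had the strongest peaks of the beta family. Its RUNX2 peak at chr21:46348209-46349452 scored 840.51 (percentile 99.7) and lay in an intron, 42 bp from an annotated transcript start. The overlapping CBFB peak scored 3100, the highest score in the CBFB list, which 25 CBFB peaks shared and which was also the top of the RUNX2 list. The second RUNX2 peak of ITGB2 scored 54.78 (percentile 10.7) and lay 25 bp from the start of the neighbouring gene SLX9. A number of 6 CBFB peaks, as for ITGB2, was reached by 3.50% of genes of similar length. An ITGB2 start was the nearest protein-coding start for 2 of these 6.

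ITGB3, the partner of ITGAV, had 3 RUNX2 peaks, a number reached by 7% of genes of similar length. They scored 148.18 at chr17:45335091-45336009, 130.36 at chr17:45356543-45357310 and 61.15 at chr17:45400989-45401936. The first 2 were intronic, and the third lay 71 bp from a start of EFCAB13. The highest of the 7 CBFB peaks of ITGB3 scored 344.21 and overlapped the first.

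ITGB5, another partner of ITGAV, had 3 RUNX2 and 11 CBFB peaks, and each had a start of ITGB5 as the nearest protein-coding start. Only 0.5% of the 200 genes of similar length had as many CBFB peaks. The RUNX2 peaks scored 64.73, 378.54 and 139.59, and all were intronic. The highest, chr3:124509466-124511733, was at percentile 97.8, and its CBFB partner scored 1482.23 (percentile 99.2). The CBFB scores of ITGB5 ran from 70.55 to 1482.23, or from percentile 21.6 to 99.2.

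ITGB4, the partner of ITGA6 in hemidesmosomes, had 4 RUNX2 peaks, a number reached by 1.5% of genes of similar length. They scored 84.12, 56.60, 151.4 and 66.86. The second, chr17:73734138-73735144, was the only one nearest to a start of ITGB4. The others were nearest to starts of SAP30BP, GALK1 and H3-3B, and the last of them lay 23 bp from the H3-3B start. ITGB3 and ITGB4 both lie on chromosome 17, which held 6.68 RUNX2 peaks per Mb, against 3.21 over all chromosomes. A RUNX2 peak was found at 38.8% of its protein-coding genes, against 36.0% of all. ITGB6 had 2 RUNX2 peaks, which scored 112.51 and 135.64 at 8006 and 14419 bp upstream of the gene. ITGB7 also had 2, which scored 145.47 in an intron 1221 bp from the start and 50.28 at 289 bp from a start of RARG.

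Of the genes named for integrins, ITGB3BP (a centromere protein) and ITGBL1 (a secreted integrin-like protein) had peaks, while ITGB1BP1 and ITGB1BP2 had none. The RUNX2 peaks of ITGB3BP scored 197.89 at chr1:63988477-63989757, 56 bp from a transcript start, and 198.67 at chr1:64064788-64065847. The latter lay in an intron of PGM1, and its CBFB partner scored 718.64. ITGBL1 had 1 RUNX2 peak, which scored 84.15, and 5 CBFB peaks, the highest of which scored 287.09 and had no RUNX2 peak. ITGB3BP had 3 CBFB peaks.

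Type I (classical) cadherins had RUNX2 peaks at 4 of 5 genes, type II at 4 of 13, and the other cadherins at 4 of 5. Genes of similar length gave 2.35, 6.21 and 2.19. For type II the share was 30.8% (9.09 to 61.4), and the value from length, 47.7%, was inside that interval. CBFB peaks were found at 4, 6 and 4 genes of these groups.

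CDH2 had 2 RUNX2 peaks, both intronic. They scored 95.30 at chr18:25534070-25534823 (percentile 58.9) and 66.85 at chr18:25694969-25695688 (percentile 31.5), and their CBFB partners scored 258.42 and 119.99. CDH2 had 6 CBFB peaks in all, among them a weak one that scored 75.05 at 352 bp from the gene start. CDH15 (M-cadherin, of muscle) had 2 RUNX2 peaks, which scored 68.49 and 77.50 at 1104 and 3628 bp from the start. The CBFB partner of the latter scored 1342.93 (percentile 98.9), so that a strong CBFB peak stood over a RUNX2 peak at percentile 44. A number of 5 CBFB peaks, as for CDH15, was reached by 7% of genes of similar length.

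CDH1 (E-cadherin) and CDH3 (P-cadherin) had 1 intronic RUNX2 peak each. The CDH1 peak, chr16:68824007-68824675, scored 66.65, and the CDH3 peak, chr16:68741299-68742288, scored 89.00. CDH1 had 2 CBFB peaks, the higher of which scored 144.02, and CDH3 had 1, which scored 233.01. CDH4, the fifth type I gene, had no peak.

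CDH11 had 1 RUNX2 and 1 CBFB peak. The RUNX2 peak, chr16:65078788-65079388, scored 74.57 (percentile 41.1) and lay in an intron, 14493 bp from the nearest CDH11 start. The CBFB peak, chr16:65078532-65079608, scored 340.59 (percentile 84.6). At least 1 RUNX2 peak was found at 51.0% of genes of similar length, and at least 1 CBFB peak at 75.5%, so in number of peaks CDH11 was like other genes of its length. CDH5 (VE-cadherin, of endothelium) had the highest RUNX2 score of the cadherins, 204.84 (percentile 90.1), at chr16:66410002-66410772, 94 bp from a transcript start. Its CBFB partner scored 664.4, and CDH5 had 3 CBFB peaks. CDH8 had a RUNX2 peak that scored 53.46 at 10 bp from a transcript start, and its 1 CBFB peak scored 108.42. CDH24 had a RUNX2 peak that scored 63.08 at 158 bp from a start of PSMB5, and its 1 CBFB peak scored 83.7. CDH12 and CDH22 had 1 CBFB peak each and no RUNX2 peak, and CDH6, CDH7, CDH9, CDH10, CDH18, CDH19 and CDH20 had none.

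Among the other cadherins, the GPI-anchored CDH13 held the only RUNX2 peak of the whole set without a CBFB peak. This peak, chr16:83546471-83547440, scored 108.81 (percentile 66.7). A second intronic RUNX2 peak of CDH13, chr16:83621926-83622861, scored 138.86 and overlapped a CBFB peak that scored 157.57. CDH16 (kidney cadherin) had 1 RUNX2 peak, which scored 202.72 at chr16:66960718-66961819, 8448 bp upstream and closer to a start of RRAD. CDH23, of the hair cells of the inner ear, had 2, which scored 89.95 in an intron and 132.47 in an intron of PSAP. CDH26 had 1, which scored 54.01 in FAM217B. Their CBFB peaks numbered 4 for CDH13 and CDH23, 3 for CDH26 and 2 for CDH16, with top scores of 157.57, 451.31, 405.59 and 840.64. CDH17 had no peak.

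The cadherins also split by chromosome. All 8 cadherins on chromosome 16 had both a RUNX2 and a CBFB peak (63.1 to 100%), where genes of similar length gave 3.50 and 5.56. Of the 9 on chromosomes 5 and 18, CDH2 alone had a RUNX2 peak (11.1%, 0.281 to 48.2), where genes of similar length gave 4.58. CDH2 and CDH12 had CBFB peaks. Chromosome 18 as a whole held few RUNX2 peaks, with 0.845 per Mb against 3.21 over all chromosomes, and 14.3% of its protein-coding genes had a RUNX2 peak. Chromosome 5, with 2.70 peaks per Mb and 34.6% of genes, was close to the average, and chromosome 16 was too, with 3.31 per Mb and 37.6%. The grouping by chromosome was chosen after the values were seen. Distances to the nearest RUNX2 peak reached 6577 kb for CDH19 and 5826 kb for CDH7.

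Among syndecans, SDC3 and SDC4 carried many peaks for their length. They had 4 RUNX2 peaks each, numbers reached by 1.5% and 1.00% of genes of similar length. Only length was matched. Such shares were read for 57 genes and both proteins, so a few small ones are likely in any set of this size. They were not tested. Chromosomes 1 (SDC3) and 20 (SDC4) held 5.41 and 4.74 RUNX2 peaks per Mb, against 3.21 over all chromosomes. A RUNX2 peak was found at 49.9% and 35.6% of their protein-coding genes, against 36.0% of all. Within 25 kb SDC3 had 1 other protein-coding gene and SDC4 had 5, against a median of 2 for all protein-coding genes. SDC3, the syndecan of nerve and musculoskeletal tissue, had the highest RUNX2 score of the whole set, 1020.5 (percentile 99.8), at chr1:31341642-31342782. This peak lay at the end of the gene, 9375 bp from the nearest SDC3 transcript start, and its CBFB partner scored 1755.56 (percentile 99.5). The other RUNX2 peaks of SDC3 scored 141.96 in an intron, and 88.08 and 130.61 upstream. An SDC3 start was the nearest protein-coding start for all 4, and SDC3 had 5 CBFB peaks.

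SDC4, the syndecan of focal adhesions, had RUNX2 peaks that scored 276.67, 120.71, 122.46 and 108.65. The highest, chr20:43932148-43933311 (percentile 95.1), lay in an intron of MATN4 downstream of SDC4, 1502 bp from a MATN4 start. The second was in an SDC4 intron, at chr20:43966168-43967196. SDC4 had 6 CBFB peaks, the highest of which scored 816.34 and was nearest to a start of SYS1. SDC2 had 2 RUNX2 peaks, which scored 134.48 in an intron and 87.24 downstream, and 6 CBFB peaks with a top score of 481.54. SDC1 had no peak of either protein, with the nearest RUNX2 peak 50.9 kb and the nearest CBFB peak 35.0 kb away.

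Several genes without a peak had one just beyond the 25 kb limit. The nearest CBFB peak was 25.6 kb from CDH18, 31.4 kb from ITGAD and 36.6 kb from CDH9, and the nearest RUNX2 peak was 36.8 kb from CDH9 and 37.1 kb from CDH17. Within 50 kb, 32 genes had a RUNX2 peak and 42 a CBFB peak. A wider reach takes in more peaks for any gene, and the share of all protein-coding genes at 50 kb was not counted. The single RUNX2 peak of CDH26 was inside the limit, at 23.7 kb.

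Next, the overlap of the proteins was examined. The 57 genes had 52 RUNX2 and 126 CBFB peaks in reach, and no peak was counted for more than 1 of the genes. Of the 52 RUNX2 peaks, 51 shared at least 1 bp with a CBFB peak, or 98.1% (89.7 to 100), against 94.2% of the whole RUNX2 list. The study reports a lower overlap for its RUNX2 peaks and does not state its overlap rule, and the difference was not tested. Conversely, 51 of the 126 CBFB peaks shared bases with RUNX2, or 40.5% (31.8 to 49.6), against 33.8% of the whole CBFB list. That share was 20.0% (6.83 to 40.7) at alpha genes, 43.9% (28.5 to 60.3) at beta genes, 42.9% (26.3 to 60.6) at cadherins and 58.8% (32.9 to 81.6) at syndecans. The families were not compared by a test, and the lowest and highest shares rested on 5 of 25 and 10 of 17 peaks.

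CBFB peaks with a RUNX2 peak ranked higher in the CBFB list. Their median percentile was 84.6, against 44.8 for the 75 CBFB peaks of the set without RUNX2. The whole list showed the same order, with medians of 80 and 35.9. Across the 51 pairs, the scores of both proteins gave a Spearman's rho of 0.644, against 0.602 for the 9365 pairs of the whole list. These pairs come from the same 2 libraries and are not replicates. The lists differ in length, with 9941 RUNX2 and 27246 CBFB peaks, so a percentile does not mean the same in both. In the whole CBFB list, peaks with RUNX2 had a median percentile of 80, so a CBFB percentile above that of its RUNX2 partner was the usual case. The CBFB percentile was the higher one in 42 of the 51 pairs, as it was in 7946 of the 9365 pairs of the whole list. The widest gaps in that direction were at the ITGB7 pair near RARG, with a RUNX2 percentile of 0.835 and a CBFB percentile of 81.1, and in the other direction at the second ITGB3 peak, with 75.7 and 9.03. The median distance between midpoints was 116 bp.

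**Figure D3:**
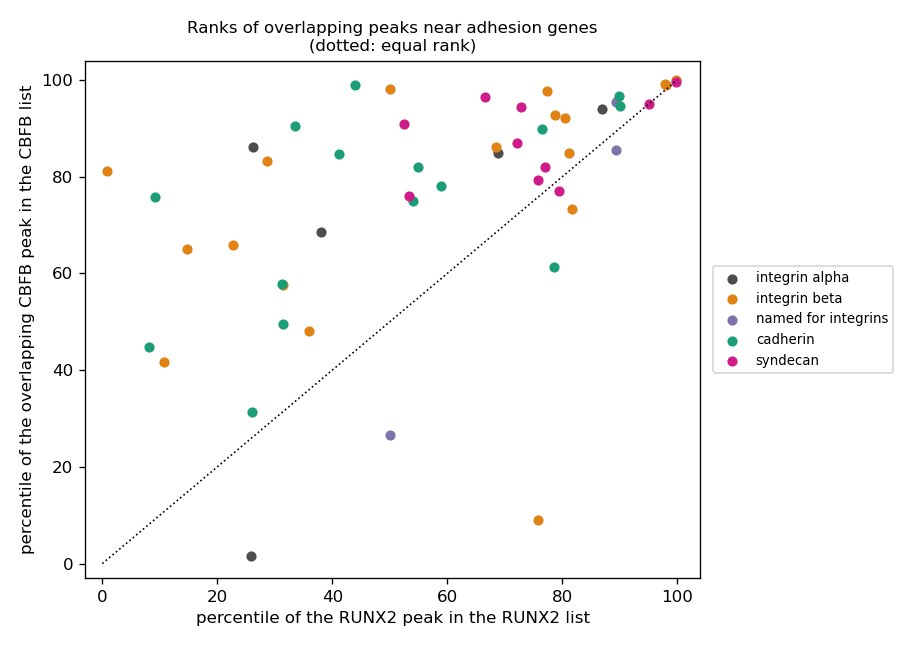
Percentile of each of the 51 overlapping RUNX2 peaks in the RUNX2 list (x axis) against the percentile of its highest-scoring CBFB partner in the CBFB list (y axis), coloured by family, with equal rank as a dotted line. Of the 51 pairs, 42 lie above the line, as do 7946 of the 9365 pairs of the whole list, and the peaks of SDC3, ITGB2, ITGB1 and ITGB5 lie in the upper right corner.

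The scores were then compared by family. The median percentile of the 52 RUNX2 peaks was 66.7, against 49.5 for all RUNX2 peaks in reach of a protein-coding gene, and 13 of the 52 (25%) were above percentile 80, against 19.4%. Medians were 72.0 for the 18 peaks of beta genes, 74.3 for the 10 of syndecans, 49.0 for the 16 of cadherins and 38 for the 5 of alpha genes. Peaks of beta genes ran from percentile 0.835 to 99.7, while those of syndecans all lay between 52.5 and 99.8. For CBFB the median over the 126 peaks was 63.6 (50.4 to 73.4), against 49.8 for peaks in reach of any protein-coding gene. The lower end was again close to the value compared. The intervals of both medians run between ranked peaks on either side of the median. They treat each peak as independent, although ITGB5 alone had 11 of the CBFB peaks. By family the CBFB median was 61.8 for alpha genes, 65.0 for beta genes, 50.4 for cadherins and 79.4 for syndecans.

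**Figure D4:**
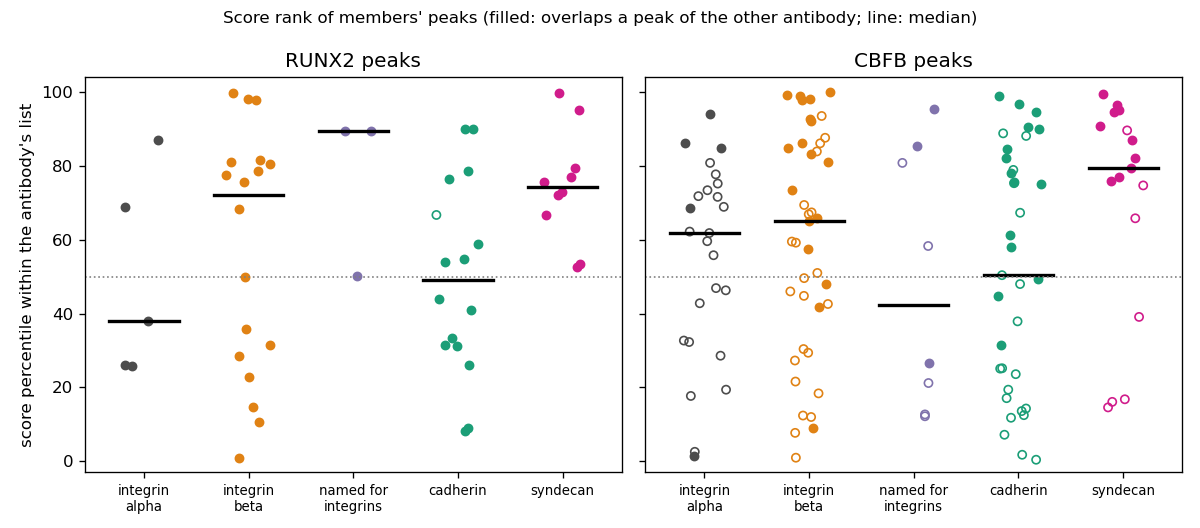
Score percentile of every RUNX2 (left) and CBFB (right) peak within 25 kb of the genes, by family, with filled points for peaks that overlap the other protein and black lines for medians. Syndecan RUNX2 peaks all lie above percentile 50, between 52.5 and 99.8, while those of beta genes span 0.835 to 99.7.

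Peaks were also placed relative to the genes. Of the 52 RUNX2 peaks, 16 lay within 5 kb of a transcript start of the gene (30.8%, 18.7 to 45.1), against 32.4% over all pairs of a protein-coding gene and a RUNX2 peak in reach. A further 14 lay in the rest of the gene body, 14 upstream and 8 downstream. Beta genes had 8 of their 18 RUNX2 peaks within 5 kb of a start, alpha genes 2 of 5, cadherins 4 of 16 and syndecans 0 of 10. For syndecans a count of 0 of 10 allows a share of up to 30.8%. Of the 126 CBFB peaks, 39 (31.0%, 23 to 39.8) lay within 5 kb of a start, against 32.9% over all pairs. The gene's own start was the nearest protein-coding start for 35 of the 52 RUNX2 peaks (67.3%, 52.9 to 79.7), against 57.8% over all pairs, and for 84 of the 126 CBFB peaks (66.7%, 57.7 to 74.8), against 59.6%. Counting peaks only for the gene with the nearest start left 23 of the 27 genes with a RUNX2 peak and 30 of the 36 with a CBFB peak. All 7 beta genes with a RUNX2 peak kept one. The shares of all protein-coding genes, and of genes of similar length, under this rule were not counted.

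**Figure D5:**
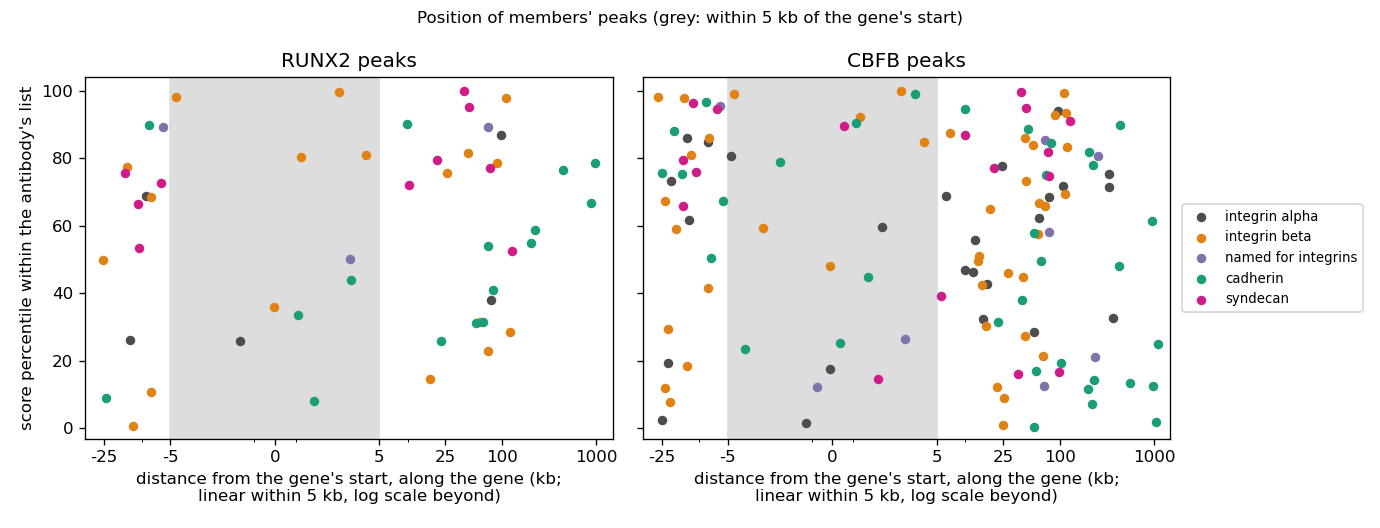
Distance of each RUNX2 (left) and CBFB (right) peak from the start of its gene, along the direction of transcription in kb, against its score percentile, coloured by family. Negative distances are upstream, the grey band marks 5 kb to either side of the gene start, and the axis is on a log scale beyond it, so that the intronic CDH13 peaks stand at the far right of the RUNX2 panel, 886 and 962 kb into the gene.

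Last, the sequence under the peaks was examined. The RUNX core was present within 100 bp of the midpoint in 21 of the 52 RUNX2 peaks, or 40.4% (27.0 to 54.9), against 43.2% of the whole list. Among 91 peak-free windows of equal size taken 2 kb away, 18.7% held the core, against 13.6% of those beside the whole list. For CBFB the core was present in 50 of 126 peaks, or 39.7% (31.1 to 48.8), against 41.6% of the whole list. Of 219 such windows beside these peaks 16.9% held it, against 13.8% beside the whole list. Of the 4 highest-scoring RUNX2 peaks, that of ITGB1 alone had a core this close. In the SDC3 peak of score 1020.5 the nearest core was 122 bp from the midpoint, in the ITGB2 peak of score 840.51 it was 442 bp away, and in the ITGB5 peak of score 378.54 it was 109 bp away. The ITGB1 peak of score 388.75 had 2 cores in the window, the nearest 13 bp from the midpoint.

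The AP-1 motif TGANTCA, bound by FOS and JUN proteins, was found within 100 bp of the midpoint in 14 of the 52 RUNX2 peaks, or 26.9% (15.6 to 41.0), against 13.1% of the whole list. Peak-free windows held it in 2.20% of the 91 beside these peaks and in 5.63% of those beside the whole list. The RUNX2 peaks with AP-1 belonged to CDH2, CDH11, CDH13, CDH23, ITGA11, ITGB1, ITGB3, ITGB5, ITGB6, ITGB7, ITGBL1 and SDC4. In CBFB peaks it was 17.5% (11.3 to 25.2), against 11.9% of the whole list, with 9.13% of the 219 peak-free windows beside these peaks and 6.04% of those beside the whole list. In the 51 CBFB peaks of the set that overlapped a RUNX2 peak it was 17.6% (8.40 to 30.9). The TEAD motif GGAATG was in 19.2% (9.63 to 32.5) of the RUNX2 peaks, against 15.5%, and the ETS motif CCGGAA in 7.69% (2.14 to 18.5), against 6.10%. In CBFB peaks these shares were 17.5% against 14.4% and 3.97% against 4.90%. Peak-free windows beside the RUNX2 peaks held TEAD in 9.89% and ETS in 3.30%, against 10.3% and 1.78% beside the whole list. For CBFB such windows held them in 6.85% and 2.74%, against 10.4% and 1.75%. Across the 4 motifs and both proteins, AP-1 in RUNX2 peaks gave the only interval that left out the share of the whole list. No test was run. All motifs were searched on both strands, and none of the 4 contains another. A match describes the letters and does not show that a protein was bound there.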

How the data were processed

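ChIP-seq peak lists for RUNX2 and CBFB in SAOS2 cells were analysed, 1 library each. The authors called peaks with MACS, and the submitters' processing notes list CASAVA 1.8.2, MACS 1.4.1 and hg19. The deposited score of each peak was taken as the authors gave it. Its scale is not stated, and its range fits the usual MACS score, a logarithm of the p-value that grows with the evidence for a peak. Whether the input served as control, and how deep the libraries were, is not given in the sources used here.

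Coordinates were counted from 1. Genes were protein-coding genes of GENCODE release 44 lifted to GRCh37. The symbol rule took in 4 genes that are no integrin subunits, and an alternative left them out. Outside chromosomes 1 to 22, X and Y lay 13 RUNX2 and 42 CBFB peaks, which entered no gene or sequence step. Overlap meant at least 1 bp. For each gene, the 100 shorter and 100 longer other protein-coding genes nearest in length (fewer at the ends of the range) gave a mean share with a peak, and these shares were summed over each family. Scores were ranked within a list only. Named genes were ITGB1, ITGAV, ITGA5, ITGB3, CDH2, CDH11 and the syndecans, with up to 4 members of each family with the most RUNX2 peaks. For the other members peak counts were given, with further values for some that were chosen after the values were seen. The members, groups, motifs and comparisons were chosen with earlier results of these data known. Motifs were read from the GRCh37 genome. The sequences of 2 of the families, and a neighbouring gene of 1 member, are not reported here. The overlap, distance and length steps were tested on simulated peaks. Alternatives covered the reach, the overlap, the score limit, list size, the number of genes of similar length and the form of the motif. Scripts used Python 3.11.15 (pandas 2.3.3, numpy 2.4.6, scipy 1.17.1), and plots were drawn with matplotlib 3.10.9.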

Additional observations from a re-analysis of the deposited data

How the results depend on the processing

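Of the 43 alternative values for 10 results, 33 stayed within 1.5 times the count reported (for counts and length-based values) or within the 95% interval (for shares and median percentiles), and 10 moved beyond it. Requiring 50% of each of both peaks lowered the share of RUNX2 peaks with a CBFB peak from 98.1% to 76.9%, and the share of CBFB peaks with a RUNX2 peak from 40.5% to 31.7%. With as many top CBFB peaks as RUNX2 peaks, these shares were 76.9% and 63.5%, since weaker CBFB peaks were left out. Under these 2 settings the shares of the whole lists were not computed, so the adhesion genes could not be set against them. The share of RUNX2 peaks with a core was 23.1% within 50 bp, 86.5% anywhere in the peak and 19.2% for TGTGGTT, where the whole list gave 24.1%, 78.1% and 23.4%. For CBFB it was 20.6%, 80.2% and 20.6%, where the whole list gave 22.9%, 80.9% and 23.2%, so longer windows hold more matches in both. Genes with a RUNX2 peak numbered between 20, with peaks at or above the median score, and 32, with a reach of 50 kb. Genes with a CBFB peak numbered between 27, with as many top CBFB peaks as RUNX2 peaks, and 42, with a reach of 50 kb. The shares of all protein-coding genes under these settings were not counted.

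Settings chosen after seeing the data replaced genes of similar length by genes of the same chromosome, which gave 20.0 genes with a RUNX2 peak, and by genes of similar length with a similar number of neighbouring genes, which gave 24.4. Beta genes then had 2.99 and 3.41 against the 7 observed, alpha genes 6.80 and 7.42 against 3, and cadherins 7.28 and 10.5 against 12. With a reach of 5 kb, 6 beta genes and 2 alpha genes had a RUNX2 peak, where length gave 2.48 and 5.51. No paired analysis was possible because neither antibody had a second library and no result came from a test. The lists hold no read counts, so weak or missing peaks could not be set against depth.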
